A study of Mus musculus with 15 samples.

Results

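The loci of 4 transcription factors that control heart formation, Nkx2-5, Gata4, Gata6 and Isl1, were examined for binding of Polycomb repressive complex 1 (PRC1) in mouse cells. Each locus was taken as a fixed window of the mm9 build: chromosome 17 from 26.96 to 27 Mb for Nkx2-5, chromosome 14 from 63.8 to 63.91 Mb for Gata4, chromosome 18 from 11.03 to 11.1 Mb for Gata6, and chromosome 13 from 117.06 to 117.12 Mb for Isl1. The windows held 75 peaks of the 30692 in 5 peak lists, with 17 at Nkx2-5, 21 at Gata4, 14 at Gata6 and 23 at Isl1. No peak crossed the edge of a window. The windows carry the genes' names as given, since mm9 gene positions were not used here, and no distance to a start site is reported. Which exon, intron or upstream part lies under a peak was therefore not determined.

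The cells were of the E14Tg2A line of mouse embryonic stem cells (ESCs). They were kept undifferentiated in 2i medium with LIF, or differentiated with BMP4 into early cardiac mesoderm precursors (MES). Mel18 was mapped in ESCs and in MES with 1 antibody lot, and in MES the subunits RYBP, Ring1b and Cbx2 were each mapped with an antibody of their own. Each list came from 1 sample and no read depth was known, so no difference between lists has a replicate check and none was tested. Peaks within a window share their locus and are not replicates. Expression values were not used here, so the cell labels were not checked against marker genes. In bulk chromatin, binding in more cells and more binding per cell cannot be told apart.

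PRC1 is a repressor that marks chromatin by attaching ubiquitin to a histone, and it gathers at CpG-rich sequence near developmental genes that are silent or poised. Ring1b is its catalytic subunit. Mel18, also called Pcgf2, is a PCGF partner of Ring1b. Cbx2 is a chromodomain subunit of the canonical form that recognises a Polycomb histone mark, and RYBP belongs to the variant forms. Nkx2-5 encodes a homeodomain factor of cardiac progenitors, and Gata4 and Gata6 encode zinc finger factors that act in cardiac mesoderm and in endoderm. Isl1 encodes a LIM homeodomain factor of progenitors of the second heart field, which is also used in motor neurons and the pancreas. In GRCm38.p6 of RefSeq, used here for names only, the nearest protein-coding neighbours are Bnip1 and Kifc5b for Nkx2-5, Neil2 and Blk for Gata4, Mib1 and Rbbp8 for Gata6, and Itga1 and Parp8 for Isl1. The long non-coding gene Gata6os overlaps Gata6.

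The CpG content of a promoter is shown because PRC1 is known to gather on CpG-rich sequence. RefSeq promoters were used for 2 of the 4 genes, Nkx2-5 and Isl1. None was used for Gata4 or Gata6, which does not mean that RefSeq lacks a promoter for either gene. The 250 bases before the start are printed 5′ to 3′ on the minus strand with each CG in capitals, from chr17:26841566-26841815 for Nkx2-5 and chr13:116309689-116309938 for Isl1, both in GRCm38.p6 and not in the build of the peaks.
Nkx2-5: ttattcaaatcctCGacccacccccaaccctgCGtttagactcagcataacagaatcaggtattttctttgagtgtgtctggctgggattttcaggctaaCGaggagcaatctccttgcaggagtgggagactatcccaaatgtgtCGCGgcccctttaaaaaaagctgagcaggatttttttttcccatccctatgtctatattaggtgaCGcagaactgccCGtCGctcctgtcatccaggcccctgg
Isl1: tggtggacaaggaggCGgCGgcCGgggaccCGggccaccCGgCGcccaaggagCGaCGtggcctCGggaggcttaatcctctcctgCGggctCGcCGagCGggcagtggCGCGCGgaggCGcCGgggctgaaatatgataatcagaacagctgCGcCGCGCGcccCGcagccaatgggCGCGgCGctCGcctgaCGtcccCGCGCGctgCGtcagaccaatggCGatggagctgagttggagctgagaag
These 2 promoters differed widely in CG content. The Isl1 stretch held 33 CG and was 71.2% G or C, and 4.03% of 32851 promoters in the table held as many CG or more. The Nkx2-5 stretch held 8 CG and was 49.2% G or C, and 43.0% of promoters held as many or more, against a median of 6 CG. CG reads the same on both strands, and these counts describe the printed letters only. Whether a peak covers these bases was not determined.

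Mel18 was already present at all 4 loci in ESCs, and no ESC site was without Mel18 in MES. All 17 ESC Mel18 peaks of the windows overlapped a MES Mel18 peak by at least 1 bp (100%, exact Clopper-Pearson 95% interval 80.5 to 100), whereas 52.6% of the 6593 ESC Mel18 peaks of the whole list did. The interval covers counting only. Of these 17 peaks, 14 scored above the median of the ESC list and 14 were wider than its median. The share among other peaks of like score and width was not computed. MES Mel18 covered all but 42 of the 48018 bases that ESC Mel18 covered in the windows, that is 99.9%, against 67.6% of the bases over the whole list. The overlap came from wide MES peaks that took in several ESC peaks: with peak centres required to lie within 1 kb, 5 of 17 ESC peaks had a partner.

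MES Mel18 was spread over longer stretches than ESC Mel18 at each locus, most at Nkx2-5 and least at Gata6. At Nkx2-5 the covered length was 9.33 kb in ESCs and 23.2 kb in MES, a ratio of 2.49. At Isl1 it was 11.3 kb and 21.4 kb, a ratio of 1.88. At Gata4 it was 17.8 kb and 28.1 kb, a ratio of 1.58, and at Gata6 it was 9.55 kb and 12.4 kb, a ratio of 1.30. Greater MES cover is common, since MES Mel18 covered more than ESC Mel18 in 74.9% of 2540 regions with peaks of both, where a region is a stretch of overlapping peaks of any of the 5 lists. Over the genome, 335 regions held peaks of all 5 lists and a MES Mel18 score of 3100 or more, the value at which scores pile up, and their median ratio was 1.38. The windows held 6 of these regions, 2 at Nkx2-5, 2 at Gata4, 1 at Gata6 and 1 at Isl1. At Nkx2-5 the ratio was 2.01 in the first region (26970193 to 26985881) and 3.88 in the other (26985997 to 26995419), and 88.4 and 97.9% of the 335 regions were at or below these values. At Gata4 it was 1.28 in the first region (63857976 to 63877766) and 2.64 in the other (63879488 to 63890832), with 35.8 and 95.8% at or below. It was 1.71 at Isl1 (78.2% at or below) and 1.30 at Gata6 (38.5%). The first Gata4 region and the Gata6 region thus lay below the median of such regions, and the other 4 above it. The Nkx2-5 regions were parted by only 115 bp without any peak (26985882 to 26985996). Their separate ratios depend on that gap, and the ratio over the whole window was 2.49.

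**Figure D1:**
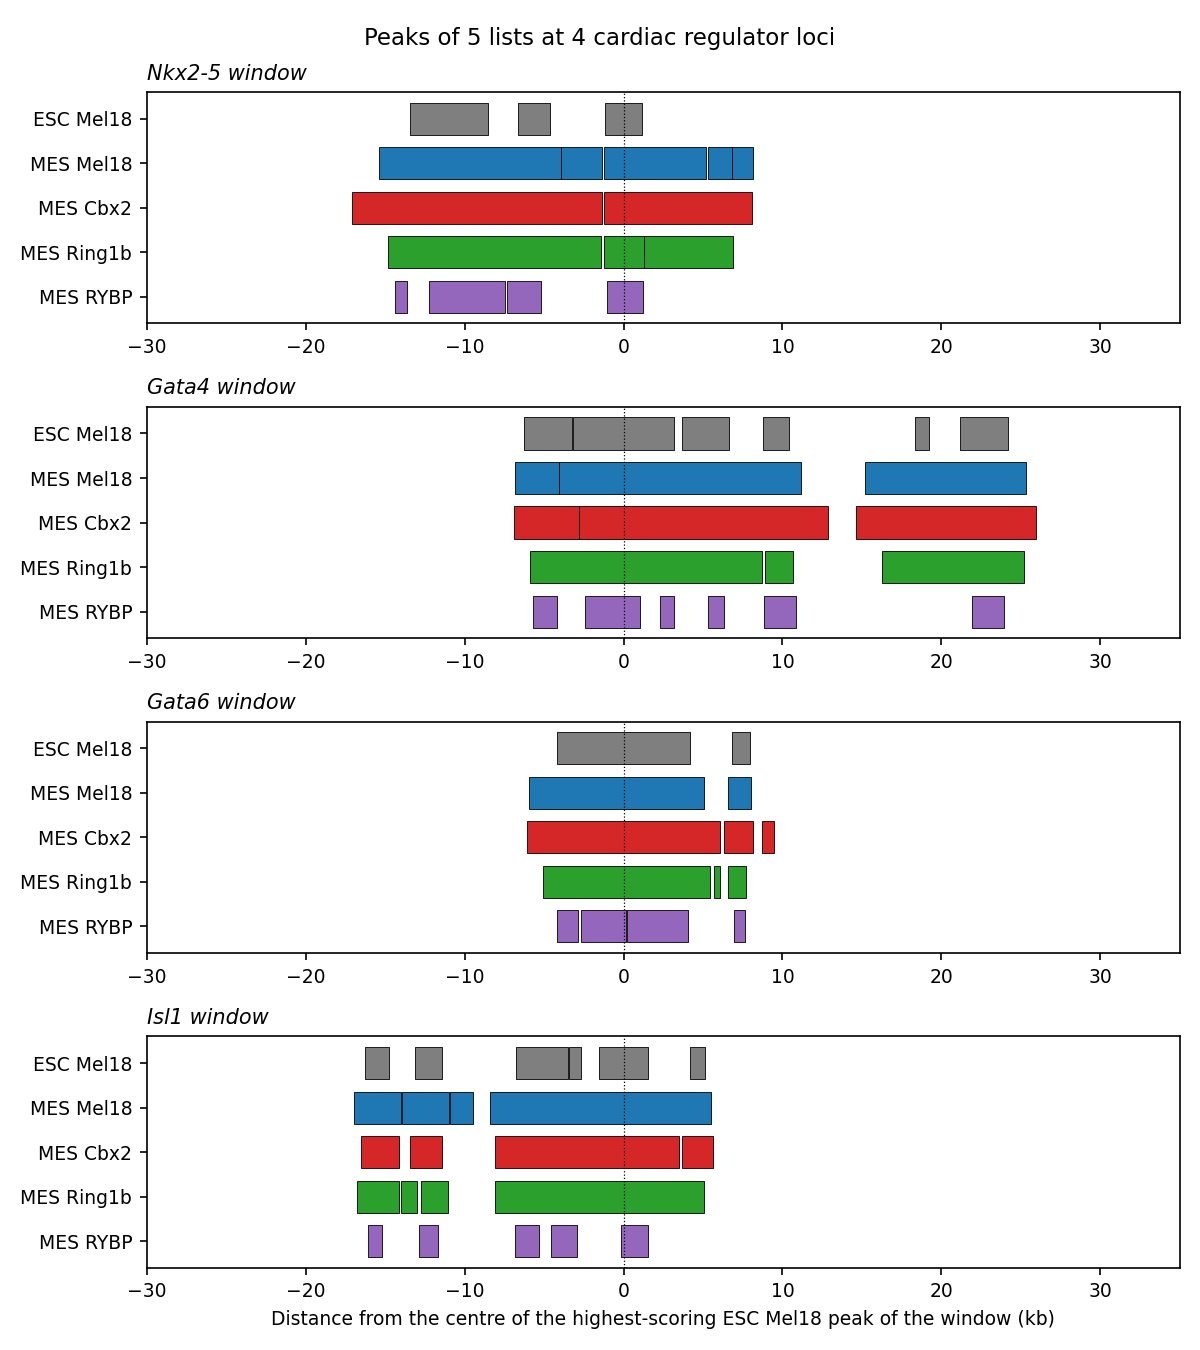
Peaks of the 5 lists in the 4 windows, 1 panel per window and 1 row per list, drawn to scale against the distance in kb from the centre of the highest-scoring ESC Mel18 peak of the window (dotted line). Each box is a peak from its start to its end. At Nkx2-5, Gata4 and Isl1 the MES Mel18, Cbx2 and Ring1b rows form long blocks where the ESC Mel18 and RYBP rows are broken into shorter peaks. At Gata6 ESC Mel18 also forms a long block (8419 bp), and only the RYBP row is broken there.

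At Nkx2-5 the ESC Mel18 peaks were 3 separate sites, and the MES Mel18 peaks were nearly continuous. They lay at 26973788 to 26978746 (4959 bp), 26980618 to 26982610 (1993 bp) and 26986060 to 26988441 (2382 bp) of chromosome 17. The last was among the highest-scoring ESC Mel18 peaks, with 99.8% of the list at or below its score, while it ranked 1139 in the list by width. In MES, 5 Mel18 peaks ran from 26971879 to 26995419 and covered 23208 of those 23541 bases. They comprised a peak of 11422 bp over the first pair of ESC sites, a peak of 2550 bp with no ESC Mel18 peak (26983317 to 26985866), a peak of 6397 bp over the third ESC site and peaks of 1488 and 1351 bp beyond it. The 2550 bp peak scored as high as or higher than 88.7% of the MES Mel18 list. MES Mel18 reached 6978 bp past the last ESC base and 1909 bp before the first, so most of the added reach lay on the side of higher coordinates.

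Cbx2 and Ring1b followed the extended form at Nkx2-5. Cbx2 had a peak of 15689 bp and a peak of 9318 bp, both with a score of 3100, and together they covered 99.5% of the MES Mel18 bases. Ring1b had peaks of 13436, 2504 and 5575 bp that covered 91.9% of them and ended at 26994109. RYBP had 4 peaks, of 750, 4769, 2165 and 2317 bp, that covered 43.1% of the MES Mel18 bases. Its last peak (26986182 to 26988498) ended 57 bp after the last ESC Mel18 peak, so the stretch beyond it carried peaks of Mel18, Cbx2 and Ring1b but no further RYBP peak. The RYBP peak of 4769 bp scored 912.2, and 98.7% of the RYBP list was at or below it.

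At Gata4 the peaks formed a pair of blocks, separated in all 5 lists by 1721 bp without any peak (63877767 to 63879487 of chromosome 14). ESC Mel18 had 4 peaks in the first block, of 3048, 6352, 2961 and 1611 bp, and 2 in the other, of 839 and 2995 bp. MES Mel18 covered the first block with peaks of 2742 and 15198 bp and the other with a single peak of 10140 bp. The difference between cell states was larger in the other block: ESC Mel18 covered 3834 bp of it and MES Mel18 10140 bp, whereas in the first block the values were 13972 and 17940 bp. Cbx2 covered 19778 bp of the first block and 11345 bp of the other, and Ring1b covered 16334 and 8945 bp. RYBP covered 8932 bp in 5 peaks of the first block and 1967 bp in 1 peak of the other, which lay over the ESC Mel18 site of 2995 bp. Mel18, Cbx2 and Ring1b thus each covered most of the Gata4 block on the side of higher coordinates, with RYBP at an ESC Mel18 site only.

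At Gata6 the layouts in ESCs and MES were most alike. ESC Mel18 had a peak of 8419 bp (11047707 to 11056125 of chromosome 18) and a peak of 1127 bp (11058752 to 11059878). MES Mel18 had the same layout with peaks of 10968 and 1449 bp. The wider peak had a score of 3100 in both lists, whereas 47.6% of the ESC list and 57.8% of the MES list were at or below the scores of the narrower peaks. Cbx2 peaks of 12168 and 1806 bp and Ring1b peaks of 10486 and 1108 bp lay over both sites. A further Ring1b peak of 385 bp (11057596 to 11057980) lay between the sites and overlapped no Mel18 peak of either state. RYBP covered more of the MES Mel18 bases here than at the other loci, 70.4%, with peaks of 1333, 2855, 3844 and 715 bp. Cbx2 had a further peak of 740 bp (11060641 to 11061380) that no other list shared, and 18.8% of the Cbx2 list was at or below its score.

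At Isl1 ESC Mel18 lay in 6 short peaks of 780 to 3287 bp between 117083396 and 117104758 of chromosome 13. Of these, 4 were taken in by a single MES Mel18 peak of 13934 bp (117091218 to 117105151) with a score of 3100. The other 2 ESC sites, of 1468 and 1719 bp, lay under MES peaks of 2950 and 3003 bp. Between these and the widest peak, a MES Mel18 peak of 1463 bp (117088732 to 117090194) overlapped no peak of any other list, and 21.2% of the MES Mel18 list was at or below its score of 68.43. Isl1 was the only one of the 4 windows in which Cbx2 covered fewer bases than Mel18 in MES, 17.9 kb against 21.4 kb. RYBP had 5 peaks of 916 to 1698 bp, which covered 32.9% of the MES Mel18 bases, the lowest share of the 4 windows. The last RYBP peak ended at 117101164, before the last ESC Mel18 peak, which had no RYBP peak.

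**Figure D2:**
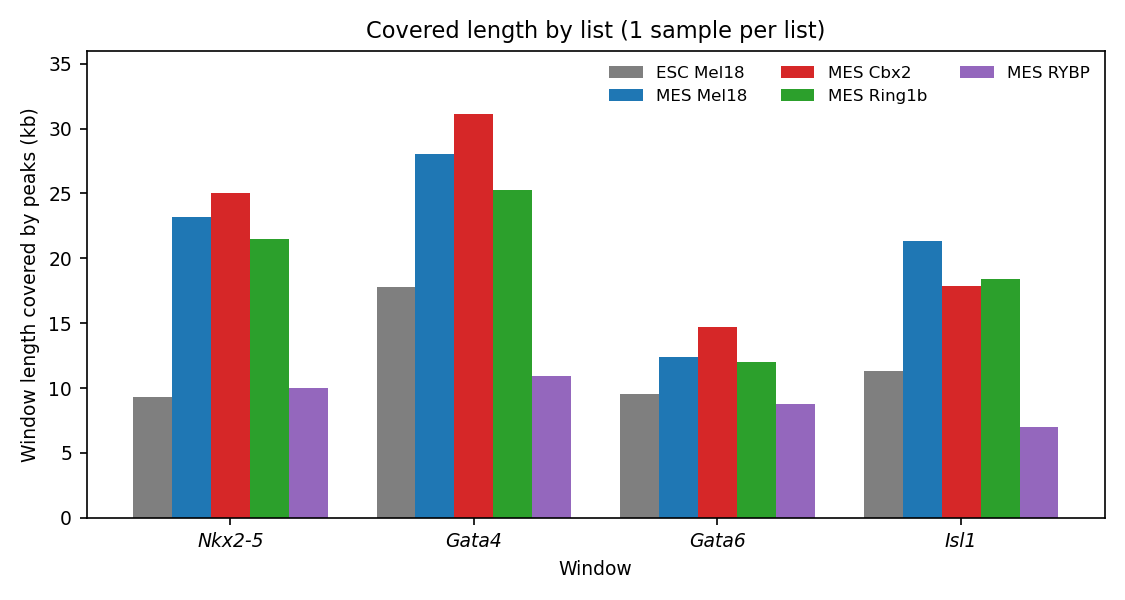
Length covered by peaks (kb, vertical axis from 0) in each window, with a bar for each list and 1 sample per list, so without error bars. Cbx2 covered the most in the Nkx2-5, Gata4 and Gata6 windows (25.0, 31.1 and 14.7 kb), MES Mel18 the most at Isl1 (21.4 kb), and RYBP less than the other MES lists in every window (7.02 to 10.9 kb).

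Subunits were found together at most MES Mel18 sites of the 4 loci. Of the 14 MES Mel18 peaks, 13 overlapped a Cbx2 peak (92.9%, interval 66.1 to 99.8), against 73.3% of the whole list. Ring1b was also at 13 of 14 (92.9%), against 81.2% of the list, and RYBP was at 10 of 14 (71.4%, interval 41.9 to 91.6), against 72.4%. The share with RYBP was therefore near that of the list, and the intervals for Cbx2 and Ring1b contain the list shares. All 3 were at 10 of 14, against 57.7% of the list. An ESC Mel18 peak was also overlapped by 10 of 14, against 66.3% of the list. The 4 MES Mel18 peaks without RYBP, 3 at Nkx2-5 and 1 at Isl1, were the same as the 4 without ESC Mel18. In the other direction, 11 of 12 Cbx2 peaks overlapped MES Mel18, against 74.1% of the Cbx2 list, and 12 of 13 Ring1b peaks did, against 42.4% of the Ring1b list. When the peaks of the 4 windows were joined across lists they made 11 regions, of which 9 held all 5 lists. Over all lists, 15.7% of 12154 such regions did. The other 2 were the Cbx2 peak of 740 bp at Gata6 and the MES Mel18 peak of 1463 bp at Isl1.

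Cbx2 and Ring1b covered most of the sequence with Mel18 in MES only, whereas RYBP lay mostly on the sequence that Mel18 already covered in ESCs. The MES Mel18 bases were divided into those that ESC Mel18 also covered (48.0 kb over the 4 windows) and those it did not (37.1 kb). Cbx2 covered 99.97% of the first class and 90.1% of the second, and Ring1b covered 97.6 and 79.1%. RYBP covered 69.9 and 8.46%. RYBP cover of the bases shared with ESCs was 91.6% at Gata6, 79.7% at Nkx2-5, 61.1% at Isl1 and 58.7% at Gata4. On the bases found in MES only it was 18.5% at Nkx2-5, 4.59% at Gata4, 1.01% at Isl1 and 0% at Gata6. The share on MES-only bases depended on Nkx2-5, since it was 2.47% over the other 3 windows.

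The same direction was seen over the rest of the genome, so it is not particular to these loci. In 2531 other regions with peaks of both Mel18 lists, RYBP covered 74.7% of the shared bases and 19.8% of the MES-only bases. There Cbx2 covered 91.5 and 84.6% and Ring1b 93.0 and 60.6%. In the 331 of these regions with a MES Mel18 score of 3100 or more, RYBP covered 76.3 and 12.3%. Peaks of the ESC Mel18 and RYBP lists are also narrower than those of MES Mel18, with medians over the whole lists of 1103, 1476 and 1855 bp. For Ring1b and Cbx2 the medians over the whole lists are 1178 and 2508 bp. Within the 4 windows the median widths were 2382 bp for ESC Mel18, 2976.5 bp for MES Mel18, 2652 bp for Ring1b and 1651 bp for RYBP. The part of peak width in the cover of shared and MES-only bases was not tested.

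**Figure D3:**
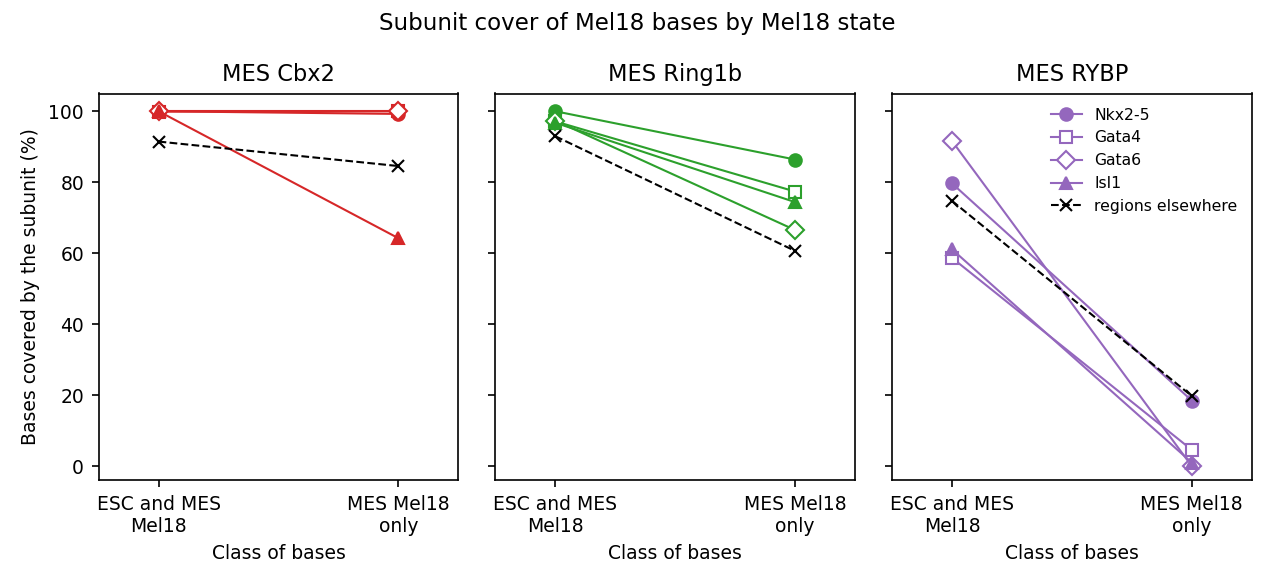
Share of bases (%, vertical axis) covered by Cbx2, Ring1b and RYBP in MES, for bases with Mel18 in both ESCs and MES (left of each panel) and with Mel18 in MES only (right). Symbols joined by lines are the 4 windows and the dashed line with crosses is the 2531 other regions; the RYBP values lie between 58.7 and 91.6% on the left and between 0 and 18.5% on the right.

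Single stretches showed how the MES-only bases were occupied. There were 30 stretches with MES Mel18 and without ESC Mel18, of which 22 were at least 500 bp long. Of these 22, Cbx2 covered over 50% of 19, Ring1b over 50% of 17 and RYBP over 50% of 2, and 17 held no RYBP at all. The longest was the stretch of 3989 bp at Nkx2-5 (26988442 to 26992430), where Cbx2 covered 100%, Ring1b 99.3% and RYBP 1.43%. At Gata4 the longest had 3177 bp (63880079 to 63883255), with 100% Cbx2, 66.6% Ring1b and 0% RYBP. At Isl1 it had 2600 bp (117101194 to 117103793), with 91.2% Cbx2, 100% Ring1b and 0% RYBP, and at Gata6 it had 1718 bp (11045989 to 11047706), with 100% Cbx2, 49.1% Ring1b and 0% RYBP. The 2 stretches that were mostly covered by RYBP were 1871 bp between the first pair of ESC sites at Nkx2-5 (26978747 to 26980617, 93.9%) and 757 bp at Gata4 (63875291 to 63876047, 62.5%).

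Seen from the RYBP list, its peaks at the 4 loci lay on ESC Mel18 sites. Of the 19 RYBP peaks, 18 overlapped an ESC Mel18 peak (94.7%, interval 74.0 to 99.9), against 50.8% of the 7614 RYBP peaks, and all 19 overlapped a MES Mel18 peak, against 45.9%. The exception was the RYBP peak of 750 bp at Nkx2-5 (26972896 to 26973645). In bases, ESC Mel18 covered 91.4% of RYBP in the windows and 52.2% over the whole list. The whole list includes many RYBP peaks away from Mel18, whereas the windows are rich in it. ESC Mel18 covered from 37.2% (Nkx2-5) to 64.9% (Gata6) of the window bases with a peak of any list. The share among RYBP peaks of other regions with both Mel18 lists was not computed. All 17 ESC Mel18 peaks overlapped a MES Cbx2 peak and a MES Ring1b peak, against 50.8% and 64.9% of the ESC list. Conversely, 15 of 17 ESC Mel18 peaks overlapped RYBP (88.2%, interval 63.6 to 98.5), against 61.6% of the list. The 2 without RYBP were the peak of 839 bp at Gata4 and the peak of 965 bp at Isl1, at 63883256 to 63884094 and 117103794 to 117104758.

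Broad and high-scoring peaks were frequent at the 4 loci in the MES Mel18, Cbx2 and Ring1b lists. Peaks of 5 kb or more made up 6 of 14 for MES Mel18 against 10.9% of the list, 6 of 12 for Cbx2 against 17.2%, and 6 of 13 for Ring1b against 4.25%. They were 2 of 17 for ESC Mel18 against 3.94% and 0 of 19 for RYBP against 1.6%. With so low a list share, 0 of 19 RYBP peaks does not set these loci apart. A score of 3100 or more was reached by 6 of 14 MES Mel18 peaks (8.98% of the list), 4 of 12 Cbx2 peaks (9.05%), 4 of 13 Ring1b peaks (3.43%) and 3 of 17 ESC Mel18 peaks (4.6%). No RYBP peak of the whole list reached it, so the position of a score within its own list is used below. The median position of the window peaks was at 78.8% of the list for ESC Mel18, 85.0% for MES Mel18, 87.5% for Cbx2 and 90.8% for Ring1b, but at 54.5% for RYBP, near the middle of its list. Single RYBP peaks ranged widely, from 0.565 to 98.7%.

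RYBP scores differed between these 6 regions, although each had a MES Mel18 score of 3100. At Nkx2-5 and Gata4 they also differed within the locus. The highest RYBP score was 912.2 in the first Nkx2-5 region and 807.49 at Gata6, which lay at 98.7 and 98.0% of the RYBP list. It was 263.18 and 139.97 in the Gata4 regions, 253.59 in the other Nkx2-5 region and 135.43 at Isl1, which lay at 79.2, 55.9, 78.0 and 54.5% of the list. Among the 335 regions, the median of the highest RYBP score was 533 (94.2% of the list). A value at or below that of Isl1 was found in 4.18% of those regions, at or below those of Gata4 in 15.8 and 5.07%, and at or below that of the other Nkx2-5 region in 14.6%. The shares were 76.7% for Gata6 and 85.1% for the first Nkx2-5 region. In length, RYBP covered 66.0% of the Gata6 region, 49.0 and 24.6% of the Nkx2-5 regions, 45.1 and 17.3% of the Gata4 regions and 34.8% of the Isl1 region, against a median of 52.7%. Of the 6 regions, the 4 at Isl1, Gata4 and the higher coordinates of Nkx2-5 thus had RYBP scores below the median of such regions. For Nkx2-5 this rests on a gap of only 115 bp between its regions. Joined across that gap, their highest RYBP score would be 912.2, above the median.

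**Figure D4:**
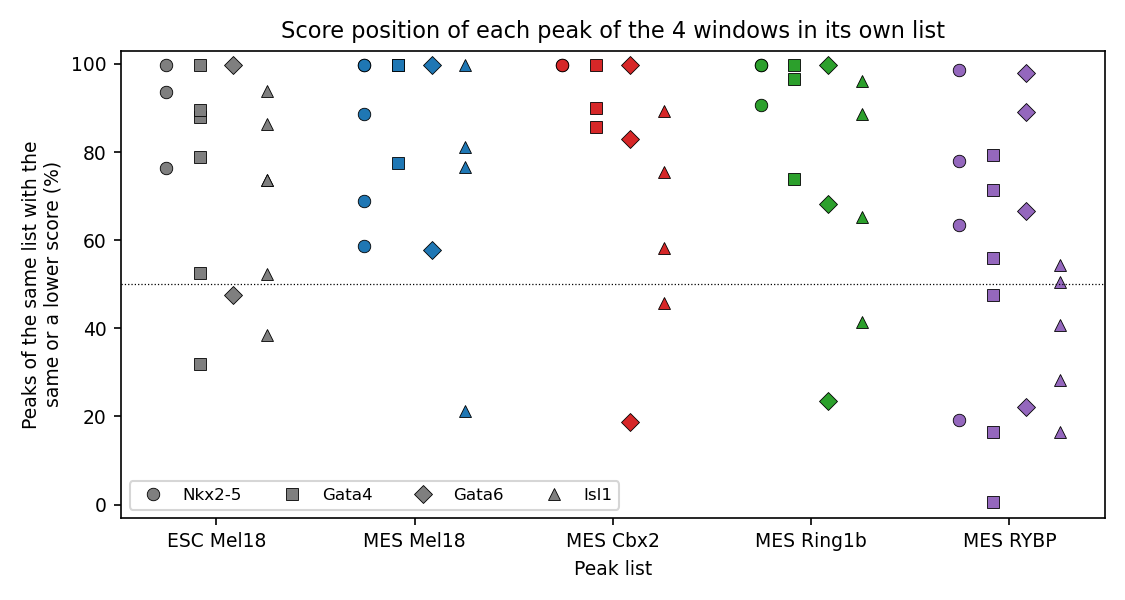
Position of the score of each of the 75 peaks in its own list, as the share (%) of that list with the same or a lower score; columns are lists, symbols are the 4 windows and the dotted line marks 50%. MES Mel18, Cbx2 and Ring1b peaks are mostly near the top, and the 5 RYBP peaks at Isl1 lie between 16.5 and 54.5%.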

How the data were processed

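Peak lists of 5 ChIP-seq samples, 1 per group, were used of 15 samples in the series. RNA-seq and the IgG library were not used here. Each deposited list gives the position of each peak and 1 score from the authors' caller, whose peak names carry the MACS tag. The scale of the score is not stated in the deposited files, so it was used within 1 list only. Per the submitters' processing notes, reads were placed on mm9 and Bowtie and TopHat were used, with no versions. The caller's settings, its control and any pooling of replicates are not given in the sources used here, and read depth is unknown.

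Peaks overlapping a window were taken, with starts counted from 1. Bases covered, overlaps of at least 1 bp and exact 95% intervals were computed with Python 3.11.15, numpy 2.4.6, pandas 2.3.3 and scipy 1.17.1, with matplotlib 3.10.9 for plots. Overlaps and shared bases were checked with bedtools 2.31.1 for 20 ordered pairs of lists, with 0 peaks and 0 bases that differed, and tested on simulated data. The highest-scoring and widest peaks of each list were to be named in each window, but at Gata4 and Isl1 not all of them are. Each region of at least 500 bp that a list lacks is named. Stretches, the division of bases by Mel18 state and the positions of RYBP scores were added after the peaks were seen. The windows and comparisons were chosen with earlier results of these data known. A list of other cardiac genes was not used, because it needs mm9 gene positions.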

Additional observations from a re-analysis of the deposited data

How the results depend on the processing

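No paired analysis was possible because the lists are single samples. Of 48 shares and ratios recomputed under other overlap, list and window rules, 41 stayed within tolerance, which was the counting interval for a share and 1.5 times for a ratio, and none of the covered-length ratios fell below 1. The MES to ESC ratio of covered length ranged from 2.49 to 2.61 at Nkx2-5, 1.54 to 1.65 at Gata4, 1.30 to 1.47 at Gata6 and 1.88 to 2.02 at Isl1. With peak centres within 1 kb, 29.4% of ESC Mel18 peaks had a MES Mel18 partner. In the same setting 57.1, 42.9 and 50% of MES Mel18 peaks had Cbx2, Ring1b and RYBP, so RYBP was not below Ring1b. By construction this rule counts against wide peaks. With peaks within 1 kb joined, the 14 MES Mel18 peaks became 7, and Cbx2, Ring1b and RYBP each overlapped 100% of them. With lists cut to their upper 50% by score, Ring1b overlapped 100% of 13 and RYBP 53.8%. With lists of equal length, RYBP overlapped 50% of 14. Of 16 recomputed values of RYBP cover, chosen after the data were seen, 15 stayed within 1.5 times: RYBP cover of shared bases ranged from 48.0 to 76.5%, and of MES-only bases from 2.47 (without the Nkx2-5 window) to 11.2%. Unknown depth limits every statement on width, number and absence of peaks.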

Other observations

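Regions elsewhere that were most like the widest region of each window were ranked by the distance between log10 covered lengths (100 bp added) over the 5 lists. They are given by mm9 position, as no gene was assigned. The nearest to Nkx2-5 lay on chromosome 4 (115604016 to 115619917), with 6825 bp of ESC Mel18 and 13897 bp of MES Mel18. The nearest to Gata4 lay on chromosome 4 (114571732 to 114590290), with 13876 and 16463 bp. The nearest to Gata6 lay on chromosome 2 (31487595 to 31500744), with 8192 and 11411 bp, and the nearest to Isl1 on chromosome 1 (19195610 to 19209137), with 7981 and 13340 bp. At the last, RYBP covered 4320 bp, against 4886 bp in the Isl1 region.

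The 50 kb on each side of the windows held few peaks. There were none beside the Gata4, Gata6 and Isl1 windows in any of the 5 lists. Beside the Nkx2-5 window, MES Mel18 (27022487 to 27023606, 1120 bp), Ring1b and RYBP had a peak 22486, 22640 and 22250 bp after its end, and Ring1b and RYBP had a peak before it. None of these 5 peaks overlapped an ESC Mel18 peak, as that list had none there. Their scores ran from 52.74 to 108.97.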
